A study of Drosophila melanogaster with 12 samples.

Results

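Dissected midguts were compared with whole flies of Drosophila melanogaster on a glucose-enriched diet, probe set by probe set, on Affymetrix 3' expression arrays. The comparison takes in the 6 glucose-diet arrays of a series of 12, namely 3 of midgut and 3 of whole fly, and the difference in log2 signal (midgut minus whole fly) over all 18769 probe sets that are not array controls. All groups were adult w1118 females, a laboratory stock with white eyes that carries a mutation in white. They had grown up on standard cornmeal food, were moved at eclosion to a holidic diet, a fully defined synthetic food, and were 10 days old after 10 days at 25 °C. The midgut glucose and whole fly glucose groups ate this food enriched with glucose (100 g/L), and the midgut unmodified and whole fly unmodified groups ate it without that enrichment. Each midgut sample pooled 10 dissected midguts and each whole fly sample pooled 5 flies, so that single animals were not seen. A whole fly contains its own midgut, and the whole fly value of a midgut gene therefore holds midgut RNA. In such bulk samples fewer cells of a type and less RNA per cell cannot be told apart. The labels do not state that replicates were raised as separate cultures. The p-values therefore measure only how far these samples spread, which may be technical.

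The adult midgut is the digestive and absorptive stretch of the fly gut. Its epithelium holds enterocytes, which secrete digestive enzymes and take up nutrients, enteroendocrine cells, which release peptide hormones, and stem cells and enteroblasts, which renew both. Enterocytes are joined by smooth septate junctions, are shielded from food by a chitin-and-mucin sheet called the peritrophic matrix, and are wrapped from outside by visceral muscle, nerves and trachea. The Malpighian tubules, the fly's renal organ, join the gut where midgut and hindgut meet.

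The midgut and whole fly arrays did not share a common scale of signal. Array medians were 3.43 to 3.47 in midgut and 4.10 to 4.15 in whole fly, the 75th percentiles 6.22 to 6.31 and 7.10 to 7.19, and the 99th percentiles 11.90 to 11.94 and 11.74 to 11.76. Whether the tissues had been normalized together is not given in the sources used here. Setting all array medians equal moved the median difference over all probe sets to 0.50, against -0.17 as deposited, and quantile normalization moved it to 0.07. Arrays correlated, across probe sets, at 0.989 to 0.993 within midgut, at 0.991 to 0.993 within whole fly and at 0.875 to 0.903 between them.

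Midgut glucose replicate 1 stood apart from the other midgut glucose arrays. Across all probe sets it correlated with the whole fly glucose arrays at 0.899 to 0.903. Replicate 2 did so at 0.875 to 0.88 and replicate 3 at 0.877 to 0.884. Without replicate 1 the probe sets called at least 4-fold lower in midgut numbered 1723, against 1641 with it. The gap was large at a small set of probe sets. Replicate 1 exceeded both other midgut arrays by at least 4-fold at 52 probe sets, while the same count was 1 for replicate 2 and 2 for replicate 3. Of the 52, 50 were among those at least 4-fold lower in midgut than in whole fly. The oocyte gene orb, a regulator of maternal mRNA translation, read 6.32, 2.57 and 2.02 in midgut replicates 1, 2 and 3, against 9.31, 9.48 and 9.52 in whole fly. The eggshell and yolk list had array medians of 3.72, 3.59 and 3.49 in midgut. Of its 19 members 7 lay under the midgut array median in all 3 arrays, so the list median can miss a rise at single genes. A higher replicate 1 was not particular to the glucose group. The germline list had array medians of 5.14, 2.91 and 2.91 in midgut glucose and 3.87, 2.71 and 2.94 in midgut unmodified. For the cell division list they were 5.11, 3.97 and 4.15 in midgut glucose and 5.07, 3.73 and 4.29 in midgut unmodified. The source of these signals was not tested. The germline, cell division and eggshell lists are given with and without midgut glucose replicate 1. Markers of the Malpighian tubule were also higher in midgut than in whole fly, and their values are given below.

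A probe set was called when limma's Benjamini-Hochberg adjusted p, taken over all 18769 probe sets, was under 0.05. On glucose 9465 probe sets were called between midgut and whole fly, or 50.4%, of which 2023 (10.8%) were higher and 7442 (39.7%) lower in midgut. This split followed the scale of the arrays, since 21.4% of the calls were higher in midgut on the deposited values, 72.6% after setting the medians equal and 54.4% after quantile normalization. The larger differences held their side, which for equal medians was largely set by the 4-fold cut, as that scaling shifts all differences alike. At least 4-fold higher in midgut and called were 437 probe sets (2.33%), and all 437 were also called higher under either other scaling. At least 4-fold lower and called were 1641 probe sets (8.74%), of which 1640 were also called lower with equal medians and 1634 after quantile normalization. The 4-fold counts themselves moved, to 770 higher and 895 lower with equal medians and to 774 and 835 after quantile normalization. Differences reached further down than up. They passed 16-fold at 11 probe sets higher in midgut and at 315 lower, and ran from 5.42 to -10.17 on the log2 scale. Of the 1641 lower probe sets, 695 had a midgut mean under the midgut array median, and of the 437 higher ones, 60 had a whole fly mean under the whole fly array median. Detection calls were not used here.

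**Figure D1:**
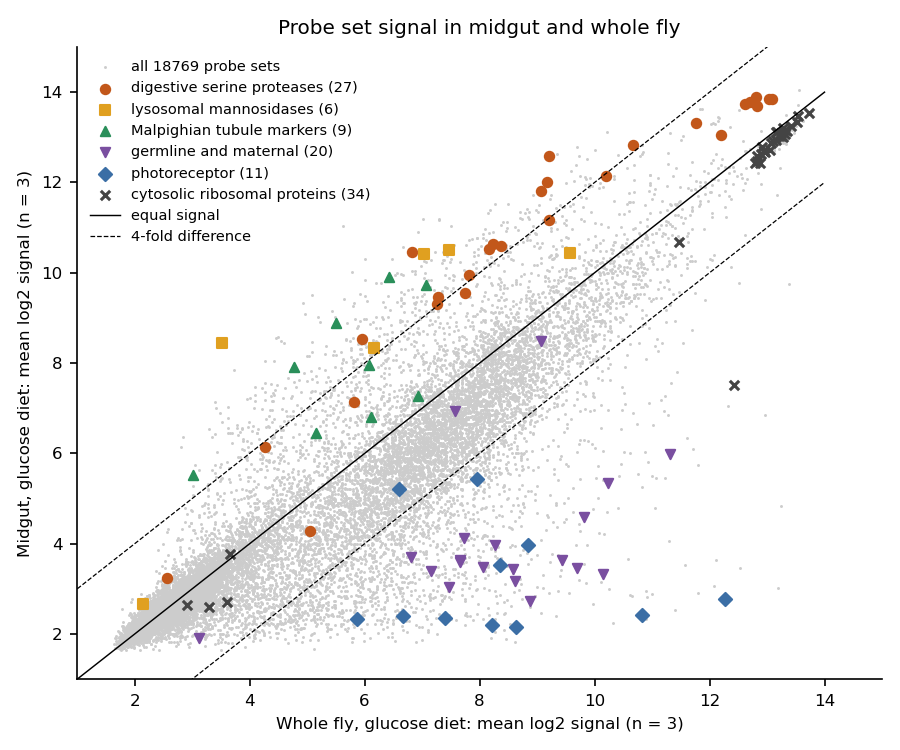
Mean log2 signal of each probe set in midgut (vertical axis) and whole fly (horizontal axis) on the glucose diet, n = 3 arrays each, with 6 gene lists marked. Digestive proteases, lysosomal mannosidases and Malpighian tubule markers lie mostly above the line of equal signal, germline and photoreceptor genes lie below it, and most cytosolic ribosomal protein genes lie close to it.

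A gene counted as measured when a probe set carried its symbol and no other. For gene lists each gene was represented by its probe set of highest mean signal across the 12 arrays. Over the 11982 genes so measured, 12.7% were called higher and 49.2% lower in midgut, 3.29% and 11.4% at 4-fold or more, and the median difference was -0.35. The counts below are to be read against these shares. Values are log2 signals in replicates 1, 2 and 3, and differences are midgut minus whole fly with the standard error (SE) of the fit over the 6 arrays.

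The largest positive difference belonged to Smvt, named for sodium-dependent multivitamin transport. It read 10.78, 11.38 and 10.96 in midgut, against 5.30, 4.63 and 6.94 in whole fly. The arrays were well separated, the third whole fly array being the highest of its group, and the difference was 5.42 (SE 0.51, limma adjusted p 3.32e-05). LManIII, of the lysosomal alpha-mannosidase family, read 7.84, 8.78 and 8.70 in midgut and 2.78, 2.62 and 5.17 in whole fly, a difference of 4.92 (SE 0.62). Here too the third whole fly array was the highest of its group. CG6602 followed at 4.42 (SE 0.29), with 9.36, 9.61 and 9.54 in midgut and 4.52, 4.92 and 5.82 in whole fly. mat (materazzi), a gene studied in the Malpighian tubule, read 8.94, 9.37 and 9.66 in midgut and 4.78, 4.70 and 5.30 in whole fly, which gave 4.39 (SE 0.22). salt (salty dog), a sodium-solute transporter family gene also studied in the tubule, read 10.82, 11.36 and 11.38 in midgut, against 7.20, 7.01 and 7.69 in whole fly, or 3.88 (SE 0.21). The other 10 of the 15 genes with the largest positive differences had only CG numbers, and their differences lay between 3.87 (CG8834) and 4.30 (CG6125). In none of the 15 did the arrays of midgut and whole fly overlap, which was part of their choice. Over all probe sets the midgut arrays lay wholly above the whole fly arrays in 2843 cases (15.1%) and wholly below in 8432 (44.9%).

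Genes known only by a CG or CR number were frequent among the midgut genes. They made up 249 of the 394 genes called at least 4-fold higher in midgut (63.2%), 467 of the 1371 at least 4-fold lower (34.1%) and 5219 of all 11982 measured (43.6%). The 51 lists used here, with 980 measured genes, covered 77 of the 394 and 148 of the 1371.

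The largest negative difference, -10.17, was at a probe set with no gene listed. Among named genes Arr2, an arrestin that ends rhodopsin signalling in photoreceptors, read 2.78, 2.75 and 2.79 in midgut and 12.48, 12.02 and 12.31 in whole fly, a difference of -9.49 (SE 0.13, limma adjusted p 1.11e-08). The midgut arrays differed by less than 0.1 from each other at this gene. Such midgut signals lie near those of the male genes described below, whose median in midgut was 2.39, so differences against them are limits rather than exact sizes and the order among these genes is not to be read closely. Its partner Arr1 was at 2.42, 2.41 and 2.43 in midgut, against 11.11, 10.43 and 10.90 in whole fly. The chorion genes Cp36 and Cp38, which build the eggshell, differed by -9.07 (SE 0.38) and -8.48 (SE 0.43). Cp36 read 3.68, 3.29 and 3.40 in midgut and 13.41, 11.65 and 12.54 in whole fly, with a spread between whole fly arrays that was wider than for Arr2. TpnC4, a troponin C of flight muscle, read 2.10, 2.07 and 2.56 in midgut and 10.52, 10.13 and 10.29 in whole fly. Act88F, the flight muscle actin, read 2.66, 4.74 and 3.21 in midgut, against 11.83, 11.11 and 11.81 in whole fly, and the second midgut array was the highest of its group. Muc68D, a mucin-related gene, read 2.28, 2.28 and 2.47 in midgut and 11.30, 11.30 and 10.09 in whole fly. The odorant-binding protein gene Obp19d differed by -7.95 (SE 0.16). The other 7 of these 15 genes had only CG numbers and differed by -9.01 (CG34324) to -7.81 (CG4000).

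**Figure D2:**
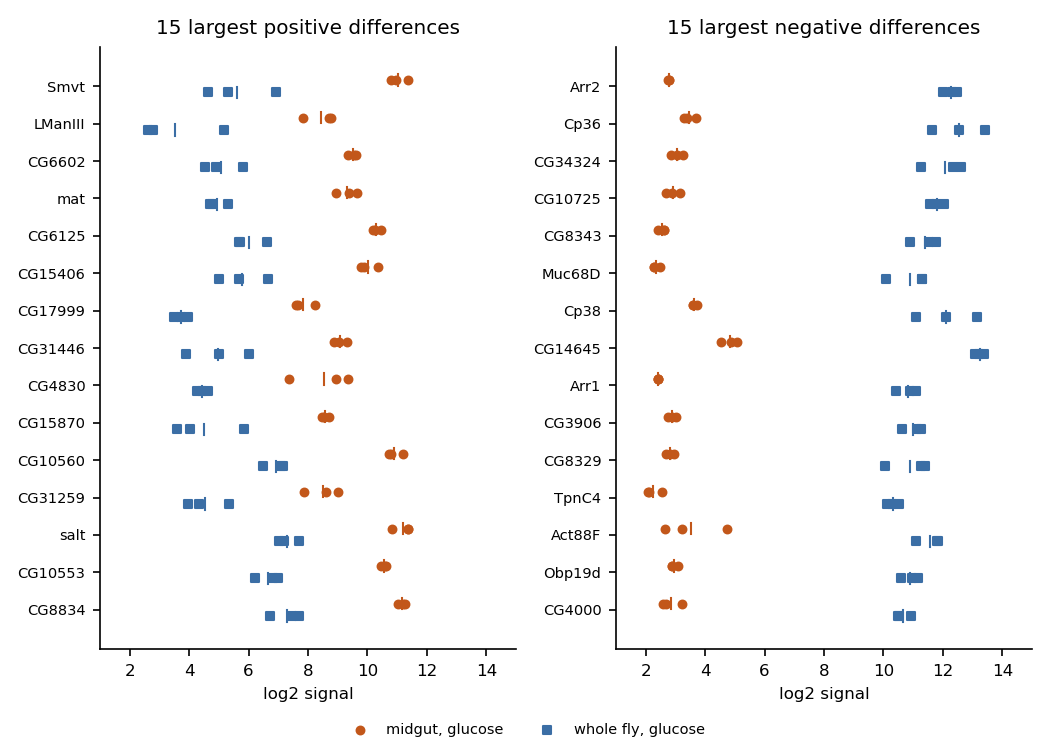
Log2 signal of each array at the 15 genes with the largest positive (left) and the 15 with the largest negative (right) difference on the glucose diet. Circles are the 3 midgut arrays, squares the 3 whole fly arrays and ticks the group means. Midgut and whole fly arrays do not overlap at any of the 30 genes, and the gaps on the right are wider than those on the left.

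Genes of luminal protein digestion were higher in midgut almost throughout. Of 27 measured digestive serine proteases, the trypsin and Jonah families that cut food protein, 26 were called higher, 12 of them at least 4-fold, and 0 lower, with a median difference of 1.94. Jon99Ci read 10.16, 11.32 and 9.86 in midgut and 6.73, 7.11 and 6.62 in whole fly, a difference of 3.63 (SE 0.34). Jon25Bii followed at 3.39 (SE 0.20), Jon25Bi at 2.84 (SE 0.21) and thetaTry at 2.75 (SE 0.20). The midgut arrays lay above the whole fly arrays for each of these 4 genes. For 7 of the proteases the whole fly mean was already over 12, and these 7 differed by 0.75 to 1.12, with midgut means of 13.05 to 13.89. yip7, for example, read 13.81, 13.83 and 13.87 in midgut, against 13.03, 13.03 and 13.21 in whole fly. The other 19 called members differed by 0.67 to 3.63. Try29F, at -0.76, did not pass.

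Enzymes of sugar chains followed the same side, with named exceptions. Of 12 amylases and maltases, which release glucose from starch and disaccharides, 9 were called higher and 2 lower, with a median of 1.92. Mal-A3 read 8.94, 9.19 and 8.70 in midgut and 5.42, 5.98 and 6.33 in whole fly, a difference of 3.03 (SE 0.23). Mal-A2 was 2.72 (SE 0.16) and Mal-A7 2.67 (SE 0.47) higher. Amyrel, an amylase-related gene, read 4.33, 4.47 and 4.63 in midgut, against 3.24, 3.53 and 3.42 in whole fly. In the other direction Mal-A5 read 6.41, 4.80 and 4.41 in midgut and 8.66, 8.79 and 8.60 in whole fly, a difference of -3.48 (SE 0.44), and Mal-B2 differed by -1.98 (SE 0.22). The difference of 0.94 at Mal-B1 did not pass. All 6 measured members of the lysosomal alpha-mannosidase family, which trim mannose from glycoprotein sugar chains, were called higher, with a median of 2.61. LManVI read 10.17, 10.52 and 10.55 in midgut and 6.18, 6.14 and 8.79 in whole fly, and LManV differed by 3.05 (SE 0.56). As at LManIII, the third whole fly array was the highest at both, and midgut still lay above it.

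Lipid-digesting genes that were called were mostly higher in midgut, while sterol-binding genes lay on both sides as deposited. Of 14 measured digestive lipases 7 were called higher and 1 lower, with a median of 0.46. Those counts were 12 and 1 with equal medians and 9 and 1 after quantile normalization, with medians of 1.13 and 1.07. CG17192 read 10.83, 11.26 and 10.49 in midgut, against 7.91, 8.59 and 7.68 in whole fly, or 2.80 (SE 0.27). CG6283, CG6295 and CG8093 were higher by 2.72, 2.71 and 2.63. mag (magro), an intestinal lipase that also cleaves cholesterol esters, was 1.81 (SE 0.52) higher, and CG18302 was lower at -1.51 (SE 0.10). The Niemann-Pick family, whose members bind sterols, split as deposited into 4 higher and 4 lower of 9. The split was 4 and 0 with equal medians and 4 and 3 after quantile normalization. Its median of -0.46 changed sign to 0.21 with equal medians and 0.24 after quantile normalization. Npc2f read 10.36, 10.46 and 9.88 in midgut and 6.79, 7.33 and 7.07 in whole fly, a difference of 3.17 (SE 0.19). Npc2d differed by 3.69 (SE 1.06, limma adjusted p 0.0178), with 9.72, 9.27 and 7.79 in midgut and 6.47, 6.74 and 2.48 in whole fly. This call was lost when midgut replicate 1 or replicate 2 was left out (adjusted p 0.0515 and 0.0608) and with a trended robust prior (0.106). Npc2g was lower at -1.28 and Npc2h at -1.24, and neither was called lower with equal medians. Only 3 of 7 listed lysozymes were measured, and of them LysS was called, at 0.75 (SE 0.14).

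**Figure D3:**
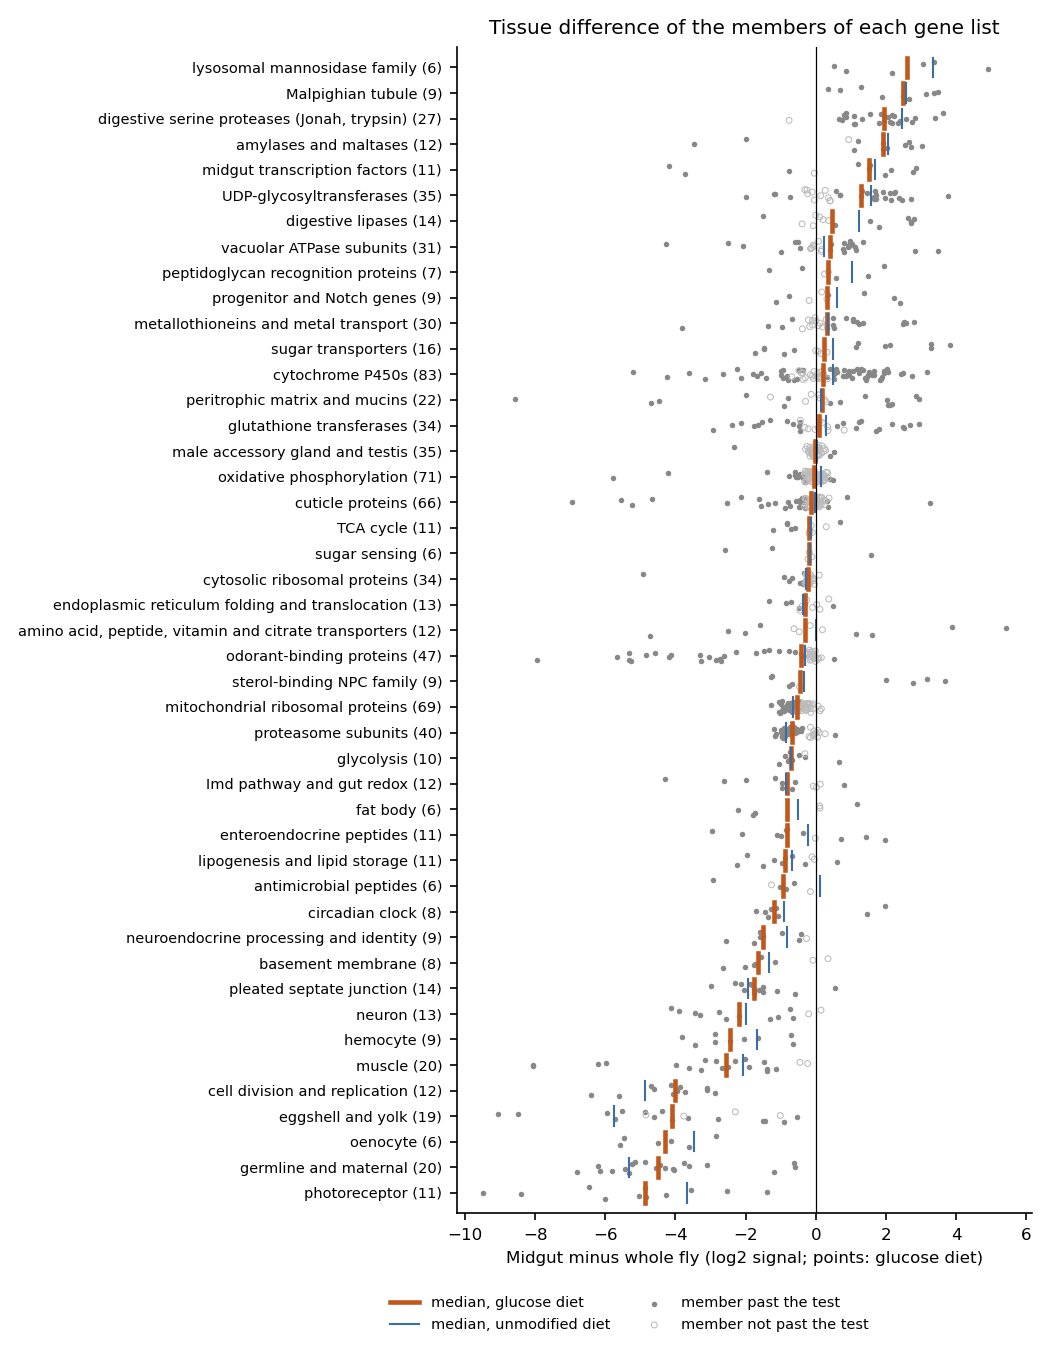
Difference between midgut and whole fly (log2 signal) for the members of each gene list with at least 6 measured genes (number in brackets). Filled and open points are members that passed and did not pass the test on the glucose diet, and bars are the list medians on the glucose and the unmodified diet. Lysosomal mannosidases, at 2.61, and photoreceptor genes, at -4.87, are the ends of the order of medians on glucose, and lists near 0 hold members on both sides.

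The barrier genes divided by the kind of junction. All 3 genes of the smooth septate junction, the junction type of the gut epithelium, were higher in midgut. Tsp2A, a tetraspanin, read 10.23, 10.18 and 10.46 in midgut, against 8.30, 7.61 and 8.47 in whole fly, or 2.16 (SE 0.22). Ssk (Snakeskin) differed by 2.0 (SE 0.19) and mesh by 1.5 (SE 0.16), where a second, dimmer probe set of mesh differed by -0.06. Of 14 genes of the pleated septate junction, the type of ectodermal epithelia, 13 were lower and 1 higher, with a median of -1.76. nrv2, a sodium pump subunit, read 3.96, 3.95 and 4.47 in midgut and 7.48, 6.66 and 7.21 in whole fly, a difference of -3.0 (SE 0.23), and Cont (Contactin) differed by -2.14 (SE 0.14). bark was the exception at 0.54, a call lost on leaving out midgut replicate 3 or any 1 of the whole fly arrays (adjusted p 0.0578 to 0.108). Both measured genes of the brush border list were lower in midgut, Cad87A at -3.98 and qua (quail), a villin-related gene, at -4.97. The other 4 listed genes had no probe set under their symbol alone, so the list rests on these genes. qua is known from nurse cells of the ovary, and it read 3.43, 2.71 and 2.76 in midgut, against 7.76, 8.32 and 7.71 in whole fly.

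Mucins and basement membrane genes also differed by member. Of 22 measured mucins and peritrophic matrix genes 9 were called higher and 6 lower as deposited. Equal medians gave 15 and 4, and quantile normalization 12 and 6. Mur18B read 12.54, 12.58 and 12.61 in midgut and 9.40, 9.54 and 10.25 in whole fly, or 2.85 (SE 0.21), and Muc68E differed by 2.95 (SE 0.22). Muc11A was 2.18 (SE 0.15) and Peritrophin-15a 2.12 (SE 0.27) higher. Besides Muc68D, Muc12Ea at -4.69 and Muc4B at -4.48 were far lower in midgut, with midgut signals of 1.92 to 2.33 at both. Of 8 basement membrane genes 6 were lower and 0 higher. The collagen IV genes Col4a1 and vkg differed by -2.64 (SE 0.16) and -2.02 (SE 0.18). Col4a1 read 7.65, 7.25 and 7.12 in midgut, against 10.09, 9.80 and 10.04 in whole fly.

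Transporter families held members on both sides. Of 16 sugar transporters 7 were called higher and 5 lower as deposited, 11 and 3 with equal medians, and 10 and 3 after quantile normalization. CG7882 read 8.65, 9.28 and 9.11 in midgut and 4.54, 5.40 and 5.61 in whole fly, a difference of 3.83 (SE 0.28). CG6484 and CG33282 were 3.29 and 3.28 higher, with no overlap between midgut and whole fly arrays. The trehalose transporter Tret1-1 was lower at -0.90 (SE 0.25) and sut1 at -1.74 (SE 0.21), while Glut1 differed by -0.63 (SE 0.15). Among 12 carriers of amino acids, peptides, vitamins and citrate, 4 were called higher and 4 lower. Beside Smvt and salt these were NAAT1, a nutrient amino acid transporter, at 1.61 (SE 0.14) and slif (slimfast), a cationic amino acid transporter, at 1.16 (SE 0.13). yin, an oligopeptide transporter gene, read 6.51, 4.92 and 4.78 in midgut and 9.86, 10.55 and 9.99 in whole fly, or -4.73 (SE 0.43), and JhI-21 and mnd (minidiscs), both amino acid carriers, differed by -2.50 and -2.03. The first midgut array was the highest of its group at yin.

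Of 30 genes for metallothioneins and metal transport 14 were called higher and 4 lower, with a median of 0.31. Those counts were 24 and 2 with equal medians and 22 and 2 after quantile normalization. MtnD, a metallothionein that binds copper and zinc, read 10.19, 10.49 and 10.73 in midgut, against 7.84, 7.74 and 8.17 in whole fly, or 2.56 (SE 0.17). MtnB differed by 2.48 (SE 0.22), and the zinc transporter genes Zip42C.2 and Zip71B by 2.79 (SE 0.13) and 2.53 (SE 0.20). Tsf1 (transferrin), an iron carrier of the hemolymph, was lower at -3.82 (SE 0.41). Of 31 subunits of the vacuolar ATPase, the proton pump that acidifies organelles and, in copper cells, the gut lumen, 16 were called higher and 7 lower. The pump's membrane subunit Vha100-4 read 9.43, 9.41 and 8.98 in midgut and 4.83, 6.41 and 6.13 in whole fly, or 3.48 (SE 0.37). Vha100-5, a second form of that subunit, was 2.84 (SE 0.10) higher, while Vha100-1, another form, was lower at -0.99 (SE 0.10). The median over the 31 was 0.42. Equal medians gave 24 higher and 4 lower, and quantile normalization 15 and 4. VhaAC45RP was lowest at -4.26 (SE 0.29).

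Regulators of the gut epithelium differed by list. Of 11 transcription factors listed for the midgut 7 were called higher and 3 lower, with a median of 1.52. GATAe, a GATA factor of the endoderm, read 7.36, 7.38 and 7.62 in midgut, against 5.48, 5.66 and 5.26 in whole fly, or 1.98 (SE 0.14). exex (extra-extra) was 2.87 (SE 0.23) higher, Ptx1 2.77 (SE 0.10) and nub (nubbin, a POU factor known from enterocytes) 2.14 (SE 0.27). Dimmer second probe sets differed by -0.01 for Ptx1 and by 0.52 and 0.27 for nub. srp, a GATA factor known from fat body and blood cells, read 5.24, 4.43 and 4.88 in midgut and 9.52, 8.12 and 8.12 in whole fly, a difference of -3.74 (SE 0.38). vvl, another POU factor, was lower at -4.18 (SE 0.30). Among 9 progenitor and Notch genes 4 were higher and 2 lower as deposited, and 7 and 1 under either other scaling. esg (escargot), which keeps intestinal progenitors undifferentiated, read 7.30, 7.42 and 7.99 in midgut and 5.62, 5.11 and 4.76 in whole fly, or 2.41 (SE 0.25). Sox100B was 2.23 (SE 0.12) higher and the Notch target E(spl)malpha-BFM 1.38 (SE 0.12). The Notch ligand gene Delta differed by -1.14 (SE 0.18), and by -0.06 after quantile normalization, which ended its call. Of 4 measured JAK-STAT genes, a pathway of gut repair, 2 were lower, Stat92E at -0.95 and upd1 at -0.69, and neither passed with equal medians, where 2 other members were called higher.

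Gut hormone genes held members on both sides. Of 11 enteroendocrine peptide genes 3 were higher and 7 lower, with a median of -0.82 that was 0.02 after quantile normalization. The split was 5 higher and 3 lower with equal medians and 3 and 3 after quantile normalization. NPF (neuropeptide F) read 7.23, 7.20 and 7.13 in midgut, against 5.09, 5.04 and 5.49 in whole fly, or 1.98 (SE 0.14). AstC (allatostatin C) was 1.42 (SE 0.15) and CCHa1 0.73 (SE 0.14) higher. sNPF (short neuropeptide F), which is also made in the brain, was at 1.75, 1.97 and 1.86 in midgut and at 5.10, 4.02 and 5.30 in whole fly. Orcokinin differed by -2.10 (SE 0.14) and Dh31 by -0.99 (SE 0.12). Of 9 genes for peptide processing and endocrine identity 8 were lower and 0 higher. amon, the prohormone convertase gene, differed by -2.57 (SE 0.19) and pros (prospero), a factor of enteroendocrine cells and neurons, by -1.75 (SE 0.14).

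Detoxification families were large and held strong members on either side. Of 83 cytochrome P450 genes, which oxidise fatty acids, hormones and xenobiotics, 39 were called higher and 22 lower, with a median of 0.21. Those counts were 57 and 12 with equal medians and 49 and 13 after quantile normalization. Cyp6a18 read 7.97, 8.55 and 8.21 in midgut, against 4.70, 5.20 and 5.36 in whole fly, or 3.16 (SE 0.21). Cyp49a1, Cyp4e3 and Cyp4d14 were 2.74, 2.50 and 2.42 higher. Cyp6a19 read 5.31, 4.57 and 4.40 in midgut and 9.58, 10.43 and 9.90 in whole fly, or -5.21 (SE 0.28), and Cyp313a1 differed by -4.23 (SE 0.14). Glutathione transferases, which conjugate toxins, split as deposited into 12 higher and 12 lower of 34. Equal medians gave 21 and 7, and quantile normalization 18 and 8. GstE5 was 2.94 (SE 0.13) and GstE3 2.69 (SE 0.15) higher, while GstD3 differed by -2.93 (SE 0.26) and GstE4 by -2.39 (SE 0.18). Of 35 UDP-glycosyltransferases, which attach sugars to lipophilic compounds, 21 were higher and 4 lower, with a median of 1.28. Ugt35B1 read 9.45, 9.63 and 9.15 in midgut, against 5.31, 5.55 and 6.08 in whole fly, or 3.77 (SE 0.21). Ugt303B1 and Ugt303A1 followed at 2.72 (SE 0.10) and 2.46 (SE 0.20), and Ugt316A1 was lower at -1.98 (SE 0.15).

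Immunity genes differed by member. PGRP-SC2 and PGRP-LB are amidases that degrade bacterial peptidoglycan. PGRP-SC2 read 11.78, 12.11 and 11.87 in midgut and 10.04, 9.97 and 9.88 in whole fly, or 1.96 (SE 0.12), and PGRP-LB differed by 1.49 (SE 0.14). pirk, an inhibitor of the Imd pathway, was 0.82 (SE 0.20) higher and the only member called higher of 12 genes of the Imd pathway and gut redox, of which 8 were called lower. Under either other scaling that list had 4 higher and 4 lower. Of 7 measured peptidoglycan recognition proteins, 3 were higher and 2 lower. The lower members were PGRP-SB1 at -1.33 (SE 0.26), not called after quantile normalization, and PGRP-SB2 at -0.38 (SE 0.10), which changed sign under either other scaling (0.30 and 0.22). Duox, the oxidase that makes microbicidal oxidants, read 3.86, 3.87 and 3.83 in midgut and 6.16, 6.71 and 6.54 in whole fly, or -2.62 (SE 0.15). Its maturation factor gene mol was at -4.30 (SE 0.24). Of 6 measured antimicrobial peptides 4 were called lower and 0 higher. Mtk (Metchnikowin) read 6.26, 4.81 and 6.58 in midgut, against 9.48, 7.37 and 9.61 in whole fly, and the second array was the lowest of both groups. Its difference was -2.94 (SE 0.64) on glucose and -0.08 on the unmodified diet, and this contrast between diets did not pass the interaction test over all probe sets. The call of Mtk held under either other scaling, while DptB and Def were called under neither and CecB was not called with equal medians.

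Sugar sensing and central metabolism differed by small amounts apart from a few genes. sug (sugarbabe), a sugar-responsive transcription factor, read 9.39, 10.21 and 9.72 in midgut and 8.35, 8.13 and 8.13 in whole fly, or 1.57 (SE 0.20). Its upstream regulator gene Mondo, at -0.22, did not pass. Of 6 sugar sensing genes 2 were lower, the activin-family ligand genes Actbeta at -2.60 (SE 0.13) and daw (dawdle) at -1.24 (SE 0.23). Of 11 genes of fat synthesis and storage 8 were lower and 1 higher, but 4 and 4 with equal medians and 5 and 2 after quantile normalization. FASN1, a fatty acid synthase, read 9.91, 10.33 and 10.14 in midgut and 12.45, 12.43 and 12.22 in whole fly, or -2.24 (SE 0.14), and ACC, acetyl-CoA carboxylase, differed by -1.51 (SE 0.15). Lpin (Lipin) was the higher member at 0.62 (SE 0.15). Of 10 glycolysis genes 8 were lower and 1 higher, by -1.04 (SE 0.12) at Hex-A and 0.67 (SE 0.13) at Hex-C, both hexokinases. With equal medians 1 was lower and 2 higher, and the list median was -0.04, against -0.71 as deposited. Hex-A read 8.70, 8.91 and 8.63 in midgut and 9.72, 9.74 and 9.90 in whole fly, and Hex-C 8.19, 8.46 and 8.49 and then 7.84, 7.75 and 7.54. The TCA cycle list had 1 gene called higher and 5 lower of 11, with a median of -0.19 that was 0.49 with equal medians, where 6 were higher and 1 lower.

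Oxidative phosphorylation and ribosomes lay near equality. Of 71 measured subunits of the respiratory chain 2 were called higher and 13 lower, with a median of -0.04 that was 0.63 with equal medians, where 59 were higher and 3 lower, and 0.03 after quantile normalization. COX7AL2, a paralog of a cytochrome c oxidase subunit, stood out at 5.41, 5.63 and 5.31 in midgut, against 11.34, 11.05 and 11.28 in whole fly, or -5.78 (SE 0.13). ND-B8 differed by -4.21 (SE 0.32). Of 34 measured cytosolic ribosomal proteins 8 were lower and 0 higher, with a median of -0.22 that was 0.46 with equal medians, where 29 were higher and 1 lower. RpS5b, a paralog known from the ovary, read 10.55, 6.07 and 5.90 in midgut and 12.40, 12.41 and 12.46 in whole fly, so that the first midgut array lay far above the other two. Its difference was -4.92 (SE 1.07), and -6.44 without that array. The call was lost with a trended robust prior (limma adjusted p 0.052). Mitochondrial ribosomal proteins had 39 lower and 0 higher of 69, with a median of -0.52 that turned to 0.15 with equal medians (17 higher, 2 lower) and 0.09 after quantile normalization (8 higher, 7 lower). Of 40 proteasome genes 27 were lower and 1 higher as deposited, 5 and 14 with equal medians, and 22 and 2 after quantile normalization. The median was -0.68, against -0.01 and -0.38 under those scalings. Of 13 genes for folding and translocation in the endoplasmic reticulum 1 was higher, Sec61alpha at 0.50, and 5 lower, with a median of -0.30 that turned to 0.38 and 0.14 under the same scalings. The call of Sec61alpha was lost in the shared fit over 12 arrays (limma adjusted p 0.0633) and without whole fly replicate 2 (0.0691), midgut replicate 2 or midgut replicate 3 (0.0801 each).

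Genes of dividing cells and of the ovary were far lower in midgut. All 12 measured genes of cell division and DNA replication were lower, with a median of -4.01. CycB3, a mitotic cyclin, read 3.93, 2.58 and 2.31 in midgut and 8.76, 9.84 and 9.47 in whole fly, or -6.42 (SE 0.43). PCNA, the sliding clamp of DNA replication, differed by -3.74 (SE 0.38), with 7.18, 5.55 and 5.91 in midgut and 9.73, 10.30 and 9.84 in whole fly. All 20 germline and maternal genes were lower as well, with a median of -4.50, and 17 of them by at least 4-fold. nanos, a translational repressor of the germ line, read 5.59, 2.12 and 2.27 in midgut, against 10.03, 10.40 and 9.98 in whole fly. The first midgut array was the highest of its group at 17 of the 20 germline genes and 11 of the 12 cell division genes. Without it the median of the germline list was -4.99 and that of the cell division list -4.30, nanos differed by -7.94 in place of -6.81, orb by -7.14 in place of -5.80 and Marf1 by -7.29 in place of -6.22, and all 32 members were still called lower. Of 19 genes of eggshell and yolk 15 were lower and 0 higher, with a median of -4.10, and without the first midgut array 13 were lower with a median of -4.35. The yolk protein genes differed least among those with strong signals, Yp1 by -0.90 (SE 0.13), Yp2 by -1.49 (SE 0.16) and Yp3 by -1.45 (SE 0.14). Yp1 read 12.14, 12.53 and 12.31 in midgut and 13.32, 13.25 and 13.11 in whole fly.

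Markers of the head, muscle and blood were lower in midgut than in whole fly. All 11 measured photoreceptor genes were lower, with a median of -4.87, and the list median by array was 2.42 to 2.56 in midgut and 7.84 to 8.56 in whole fly. In midgut 7 of the 11 lay under the array median in all 3 arrays. Among 13 neuronal genes 11 were lower and 0 higher, and the acetylcholine receptor gene nAChRbeta1 read 1.92, 1.78 and 1.82 in midgut, against 5.87, 5.91 and 6.15 in whole fly. Of 47 odorant-binding proteins 25 were lower and 1 higher, Obp47b at 0.52 (SE 0.11), while with equal medians 20 were lower and 24 higher. Muscle genes were lower in 18 of 20 cases and higher in 0, with a median of -2.57. They were not absent from midgut. Mlc1, a myosin light chain, read 9.67, 9.98 and 9.91 in midgut and 11.40, 11.05 and 11.33 in whole fly, a difference of -1.40 (SE 0.14), while flight muscle genes such as fln (flightin), at -5.98 (SE 0.24), were near the bottom of the scale. All 9 hemocyte genes were lower, Hml (hemolectin) by -3.45 (SE 0.19) and eater, a phagocytosis receptor, by -3.81 (SE 0.34). All 6 oenocyte genes, of cells that make cuticular hydrocarbons, were lower too, Fad2 by -5.57 (SE 0.39). The second midgut array was the highest of its group at the oenocyte genes FASN3, eloF and Fad2.

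Fat body, trachea and cuticle were less uniform. Of 6 fat body genes 3 were lower and 1 higher, and 3 and 3 with equal medians. apolpp, the precursor of the lipid-carrying apolipophorins, read 10.71, 10.94 and 10.86 in midgut and 12.81, 12.51 and 12.54 in whole fly, or -1.78 (SE 0.13), and NLaz, a lipocalin, was 1.17 (SE 0.14) higher. Of 4 tracheal genes 2 were lower, verm and serp at -0.65 each, and both turned positive under either other scaling (0.03 each with equal medians, 0.43 and 0.49 after quantile normalization). The call of serp was also lost in 4 of the 6 fits that left out an array. Of 66 cuticle proteins 22 were lower and 4 higher as deposited, 10 and 46 with equal medians, and 13 and 21 after quantile normalization. Among the higher was Cpr62Ba, which read 6.50, 6.61 and 6.53 in midgut and 3.23, 2.97 and 3.69 in whole fly, or 3.25 (SE 0.18). Cpr65Au differed most in the other direction, at -6.96 (SE 0.61), with 2.30, 4.87 and 2.29 in midgut. Of 4 spermatheca genes 2 were lower, Hr39 at -0.82 and lz at -0.52, where Hr39 changed sign after quantile normalization (0.20) and lz with equal medians (0.16). Other probe sets of Hr39 differed by -0.90, 0.56 and -0.74, and 1 of them was called in the opposite direction. Genes of the male accessory gland and testis were a check on background, as females alone were sampled. Over its 35 measured genes the median of the group means was 2.39 in midgut and 2.48 in whole fly, and 2 were called higher and 1 lower (Mst85C, -2.34). With equal medians 34 of these genes were called higher.

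The Malpighian tubule list was the exception among other tissues. All 9 measured genes were higher in midgut, 5 of them at least 4-fold, with a median of 2.50, and none of the 9 lay under the midgut array median in all 3 arrays. The list median by array was 7.53, 8.0 and 8.03 in midgut and 6.10, 5.81 and 6.13 in whole fly, and the log2 of the summed signal was 11.45 to 11.78 in midgut and 8.94 to 9.60 in whole fly. The organic anion transporter gene Oatp58Dc read 9.71, 10.18 and 9.84 in midgut, against 6.16, 5.85 and 7.24 in whole fly, or 3.49 (SE 0.33). Its paralogs Oatp58Db and Oatp58Da differed by 3.38 (SE 0.24) and 3.14 (SE 0.21), and the potassium channel gene Irk2 by 2.66 (SE 0.25). Lkr, the leucokinin receptor, read 4.94, 5.75 and 5.86 in midgut and 3.27, 2.37 and 3.42 in whole fly, or 2.50 (SE 0.32). SecCl, a chloride channel gene of stellate cells, was 1.29 (SE 0.19) higher. These values stand beside those of Smvt, mat, salt and the transporter and detoxification families, part of which the tubule is also known to express. How much tubule RNA added to those differences, or to those of the smooth septate junction and vacuolar ATPase lists, was not tested.

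**Figure D4:**
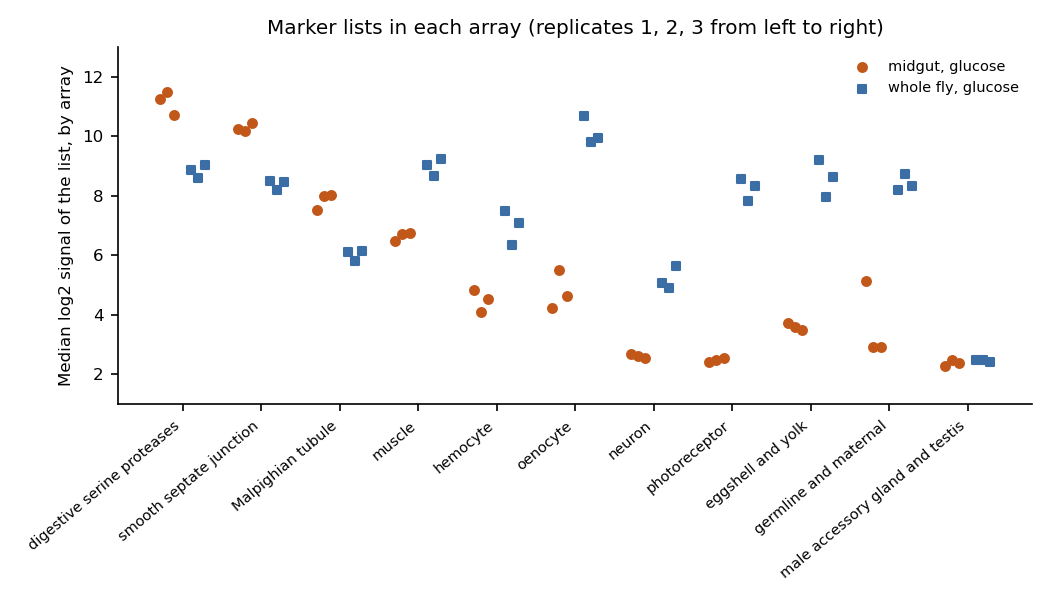
Median log2 signal of 11 marker lists in each glucose-diet array, midgut as circles and whole fly as squares, replicates 1 to 3 from left to right. Digestive protease, smooth septate junction and Malpighian tubule medians are higher in all 3 midgut arrays than in any whole fly array, the germline median of midgut replicate 1 (5.14) lies above that of the other midgut arrays (2.91 each), and the male list lies between 2.28 and 2.49 in all 6 arrays.

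Clock genes, which cycle in most tissues, were the last list. Of 8 measured 2 were higher and 6 lower in midgut. cry (cryptochrome) read 6.72, 7.07 and 7.19 in midgut, against 5.20, 4.81 and 5.02 in whole fly, or 1.98 (SE 0.16), and Clk differed by 1.45 (SE 0.16). vri (vrille) was lower at -1.70 (SE 0.15), per at -1.37 (SE 0.11) and tim at -1.07 (SE 0.29). At tim the midgut arrays read 9.30, 8.50 and 7.97, against 9.69, 9.69 and 9.59 in whole fly. Time of day at sampling is not among the sample details used here, and its part in these differences was not tested.

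Genes called at least 4-fold higher in midgut included neighbours on the chromosome. Along the order of 11899 placed genes, unmeasured genes skipped, 79 of the 394 stood in 22 runs of 3 or more. The same count was not made for the genes called lower or for random sets of genes, so it is a description only. The maltase genes Mal-A1 to Mal-A4 formed a run with differences of 2.02 to 3.03, the 3 Oatp58D genes a run of 3.14 to 3.49, and salt, CG2187 and Smvt a run of 2.86 to 5.42. The longest runs held 6 genes each, from CG31265 to CG5246 (2.01 to 3.43) and from CG10513 to CG13658 (2.14 to 3.18). Neighbours of 1 family can share sequence, and cross-hybridisation between them was not tested.

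The same contrast on the unmodified diet, from the other 6 arrays, gave 10218 calls (54.4%), of which 2714 (14.5%) were higher and 7504 (40%) lower in midgut. At 4-fold or more these were 626 (3.34%) and 2130 (11.3%). Of the 437 probe sets at least 4-fold higher in midgut on glucose, 435 were also called higher on the unmodified diet and 0 lower, and of the 1641 at least 4-fold lower, 1633 were called lower and 0 higher. Their median differences were 2.52 on glucose and 2.94 on the unmodified diet for the higher set, and -2.78 and -3.05 for the lower set. These sets were chosen on glucose, so the medians are a description. Across all probe sets the differences on glucose and on the unmodified diet correlated at 0.961. Among named genes Smvt differed by 5.42 on glucose and 6.19 on the unmodified diet, LManIII by 4.92 and 4.50, and Arr2 by -9.49 and -8.49. Cp36 differed by -9.07 on glucose (SE 0.38) and -5.74 on the unmodified diet (SE 1.64), where its whole fly arrays had a standard deviation of 3.65. Its contrast between diets did not pass the interaction test. Among lists, the digestive proteases had medians of 1.94 on glucose and 2.45 on the unmodified diet, the mannosidases 2.61 and 3.35, the smooth septate junction genes 2.0 and 3.17, and the tubule markers 2.50 and 2.56. The photoreceptor list had medians of -4.87 on glucose and -3.67 on the unmodified diet, and the germline list -4.50 and -5.33.

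The difference between the tissue contrasts of the diets was tested with an interaction term over the 12 arrays. It passed at 8 probe sets (0.0426%), all with the same adjusted p, just under the threshold at 0.049999 by limma, while 2833 probe sets had an unadjusted p under 0.05. All 8 were lower in midgut than in whole fly on both diets. In midgut they differed by -0.20 to 0.37 between glucose and the unmodified diet, and in whole fly by -1.37 to -0.74 in 7 cases and by 0.81 in flap. cno (canoe), an adaptor of adherens junctions, read 3.45, 3.70 and 3.81 in midgut glucose and 5.72, 6.12 and 6.18 in whole fly glucose. On the unmodified diet it read 3.32, 3.49 and 3.69 in midgut and 7.28, 7.51 and 7.33 in whole fly. Its tissue difference was -2.35 on glucose and -3.87 on the unmodified diet, an interaction of 1.52 (SE 0.21). No member of the gene lists passed that test. Leaving out each of the 12 arrays in turn gave 0 to 2 calls in 10 cases, 9 without whole fly glucose replicate 3 and 361 without whole fly glucose replicate 2.

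**Figure D5:**
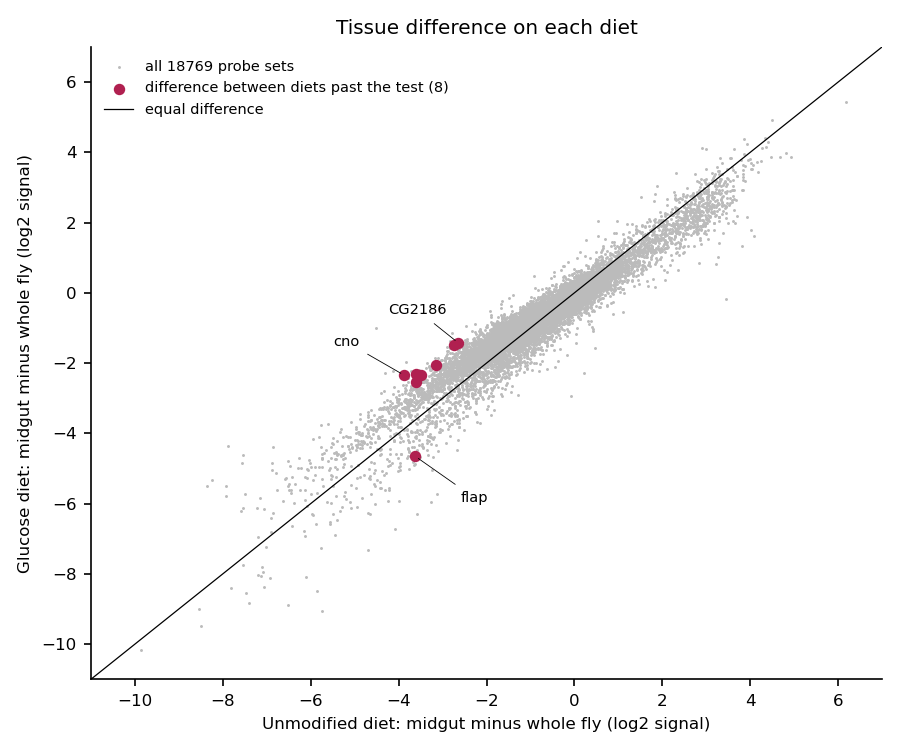
Midgut minus whole fly (log2 signal) on the glucose diet (vertical axis) and on the unmodified diet (horizontal axis) for all 18769 probe sets, with the line of equal difference. The 8 probe sets past the interaction test are marked and 3 are named. Points lie along the line from -10.17 to 5.42 on glucose, and the set at least 4-fold higher on glucose lies, by its medians of 2.52 on glucose and 2.94 on the unmodified diet, under it.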

How the data were processed

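Total RNA of midguts and whole flies, 100 ng per sample, was labelled for single-colour Affymetrix 3' arrays, per the labels' protocols. The authors deposited 1 log2 signal per probe set and array, made with Affymetrix Expression Console per the submitters' processing notes. Its version, its algorithm and whether the tissues were normalized jointly: none is given in the sources used here. That the unit is log2 follows from the range of the values. Of 18952 probe sets 183 array controls were left out. The platform annotation gave 1 gene symbol to 13647, several to 402 and none to 4720, and only the first kind was named. A RefSeq gene table, used for names and neighbours only, changed 0 symbols and lacked 103 identifiers.

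Midgut minus whole fly was modelled by limma 3.58.1 (R 4.3.3, lmFit and eBayes) on the 6 glucose arrays without covariates, two-sided, with Benjamini-Hochberg adjustment over 18769 probe sets, and the interaction with diet over 12 arrays. An exact permutation test of 3 against 3 cannot go below p = 0.1. Calls rest on the variance that limma shares across probe sets, and so few arrays limit the precision. The fit was tested on simulated data.

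Members and lists were chosen with earlier results of these data known. After the values were seen, 3 symbols of the lists were updated, and genes that only a name pattern had drawn in were removed from 2 lists. Named were the 15 genes at each end of the called differences without overlap of arrays, up to 4 of the largest called members of each list, and called members against its majority. Other list genes were named after their values were seen. A planned description of promoter motifs was not run, as promoter sequences were not used here. Alternatives were median centring, quantile normalization, removal of the dimmest 40% of probe sets, a trended robust prior, array weights, the replicate block, a shared fit over 12 arrays, averaging over the probe sets of a gene, an adjusted p under 0.01 and leaving out each array.

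What a replicate number shared between the tissues is not stated in the labels. Deviations from the group means of same-numbered midgut and whole fly glucose arrays correlated at -0.21, -0.05 and 0.03. With so few arrays in a group, these correlations cannot show whether same-numbered samples were paired, and no conclusion is drawn from them.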

Additional observations from a re-analysis of the deposited data

Results flagged for a closer look

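At 8 probe sets the difference between midgut and whole fly itself differed between the diets by the interaction test over 12 arrays. The interaction, glucose minus unmodified, was 1.52 for cno (canoe), 1.25 for jing, 1.21 for CG2186, 1.13 for ana3, 1.06 for rec and -1.02 for flap, and 1.28 and 1.11 for the remaining probe sets, which have no gene listed. For flap midgut lay below whole fly by -4.65 on glucose and by -3.63 on the unmodified diet. For the other 7 the gap was narrower on glucose, for example -1.43 against -2.64 for CG2186 and -2.55 against -3.60 for rec. All 8 had a limma adjusted p of 0.049999. Second probe sets of cno and jing had tissue differences on glucose of -0.06 and -0.33.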

How the results depend on the processing

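Calls in midgut against whole fly depended on the scale. With median centring 11182 probe sets were called higher and 4226 lower, 770 and 895 at 4-fold or more, and the unmodified diet gave 16015 calls. With quantile normalization 5101 were higher and 4280 lower, 774 and 835 at 4-fold or more. Leaving out each array gave 1693 to 1940 higher, 6897 to 7149 lower, 404 to 466 at least 4-fold higher and 1588 to 1723 at least 4-fold lower. The interaction count of 8 was 24 with median centring, 21 with quantile normalization, 47 with array weights, 0 without the dimmest probe sets, 0 with a trended robust prior, 0 at the stricter threshold of 0.01 and 0 to 361 leaving out each array, the most without whole fly glucose replicate 2.

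With the replicate block, which fits replicate number as a further term, 1782 were higher and 7043 lower on glucose and 36 had an interaction.

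List medians that changed sign under median centring and then quantile normalization were the Niemann-Pick family (0.21, 0.24), the amino acid, peptide and vitamin carriers (0.36, 0.11), sugar sensing (0.48, 0.12), oxidative phosphorylation (0.63, 0.03), mitochondrial ribosomal proteins (0.15, 0.09), endoplasmic reticulum genes (0.38, 0.14), trachea (0.29, 0.62), cuticle proteins (0.54, 0.11), spermatheca (0.34, 0.18) and the male list (0.65, 0.08). Centring alone did so for JAK-STAT genes (0.21), the TCA cycle (0.49), cytosolic ribosomal proteins (0.46) and odorant-binding proteins (0.25). Quantile normalization alone did so for enteroendocrine peptides (0.02) and the Imd list (0.02). Without the dimmest probe sets the male list was at 0.18, without whole fly replicate 2 lysozymes were at -0.03, and oxidative phosphorylation ran from -0.08 without midgut replicate 2 to 0.04 without midgut replicate 3. Checks on single genes covered those picked by the naming rule, and not others named in the text, such as Npc2g, Tret1-1 and tim. Of the genes covered, those that changed sign under centring were PGRP-SB2 (0.30), Def (0.05), verm (0.03), serp (0.03) and lz (0.16). Under quantile normalization they were PGRP-SB2 (0.22), DptB (0.03), Def (0.44), Ire1 (0.30), PEK (0.14), verm (0.43), serp (0.49) and Hr39 (0.20). For the genes covered, under all alternatives, 64 values lost their call without changing sign and 2892 kept it. The cause was not tested. Of the 1641 probe sets at least 4-fold lower in midgut, 695 had a midgut mean under the midgut array median, so the midgut side of those differences is dim.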
